A study of Gallus gallus with 15 samples.

Results

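The genes described here are 8 markers of the bile duct epithelium, PROM1, KRT7, KRT19, SOX9, EPCAM, CFTR, SPP1 and CDH1, read from whole liver. They were taken by name from a list of cholangiocyte genes, and all 8 had a row among the 24154 gene rows of the count table. Liver RNA came from 65-week-old broiler breeder hens, which lay the eggs that meat chickens hatch from. The 5 control libraries were from hens whose diet carried 0 mg/kg of metformin, and the 10 metformin libraries from hens that received 75 mg per kg of body weight. Both diets ran for 40 weeks from 25 weeks of age, and each treatment group held 45 hens. Metformin, taken by mouth, lowers blood glucose in mammals, and the study compared livers with and without it. Whether the libraries are from different hens is not stated in the labels, and p-values then measure only the spread between these samples.

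Bile ducts drain bile from the hepatocytes, the main cells of the liver, and are lined by an epithelium of cholangiocytes. These cells modify bile by secreting chloride, bicarbonate and water, and in mammals they arise from the same embryonic precursors as hepatocytes under Notch signals and the transcription factor SOX9. Keratins 7 and 19 (KRT7, KRT19) and the adhesion proteins EPCAM and CDH1 mark them as an epithelium, PROM1 and SPP1 mark ducts and duct-like progenitors, and the channel CFTR carries chloride. Most of these roles were worked out in mammals. CDH1, E-cadherin, is also made by hepatocytes, and SPP1, osteopontin, by macrophages and bone cells. In RNA from whole liver, fewer cells of a type and less RNA per cell cannot be told apart.

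The libraries differed in depth and in the share of reads outside genes, more within the metformin group than among controls. Gene counts ran from 21435678 to 26494240 reads per library in controls and from 8023809 to 41041301 with metformin. They fell into 3 sets by how many of their reads lay outside genes, with a border wherever neighbouring shares were over 5 percentage points apart. The middle set held all 5 controls, at 27.8% to 36.3%, and metformin 1, 3 and 4, at 37.0% to 43.5%. Metformin 2 and 5 formed a low set, at 14.6% to 17.5%, and metformin 6 to 10 a high set, at 51.5% to 55.1%. Neither the low nor the high set holds a control, and in both metformin and library set cannot be told apart. Each comparison is therefore given over all 15 libraries and set-adjusted, with the library set as a covariate. Set-adjusted, it rests on the 5 controls against metformin 1, 3 and 4. Each of those metformin libraries had a higher share of reads outside genes than every control. Within the middle set too, metformin and that share cannot be told apart, and the set-adjusted values carry this limit.

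All 8 markers had reads in every library. Levels are in CPM (counts scaled to the library total and to TMM library factors) and are compared between libraries for a gene, not between genes. By edgeR's quasi-likelihood test, 1 of the 8 was called higher with metformin, PROM1, and 1 lower, KRT7, at an adjusted p under 0.05. Over the 14432 genes tested, 12.5% were called higher and 5.73% lower, so 1 of 8 in a direction, which is 12.5% of them, is near the background. The median log2 fold change of the 8 was -0.30 over all libraries, against 0.03 for all genes tested. Set-adjusted, 0 of the 8 were called in either direction by edgeR, where 0.0277% of all genes were called higher and 0.00693% lower. At an unadjusted p under 0.05 stood 1 of the 8, EPCAM, and 11.6% of all genes, so this count too is near the background. The set-adjusted median of the 8 was 0.10, against -0.03 for all genes. In the middle set alone 0 of the 8 were called, where 0% of 13618 genes were called higher and 0.00734% lower. There 1 of the 8, again EPCAM, and 10.2% of all genes had an unadjusted p under 0.05.

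**Figure D1:**
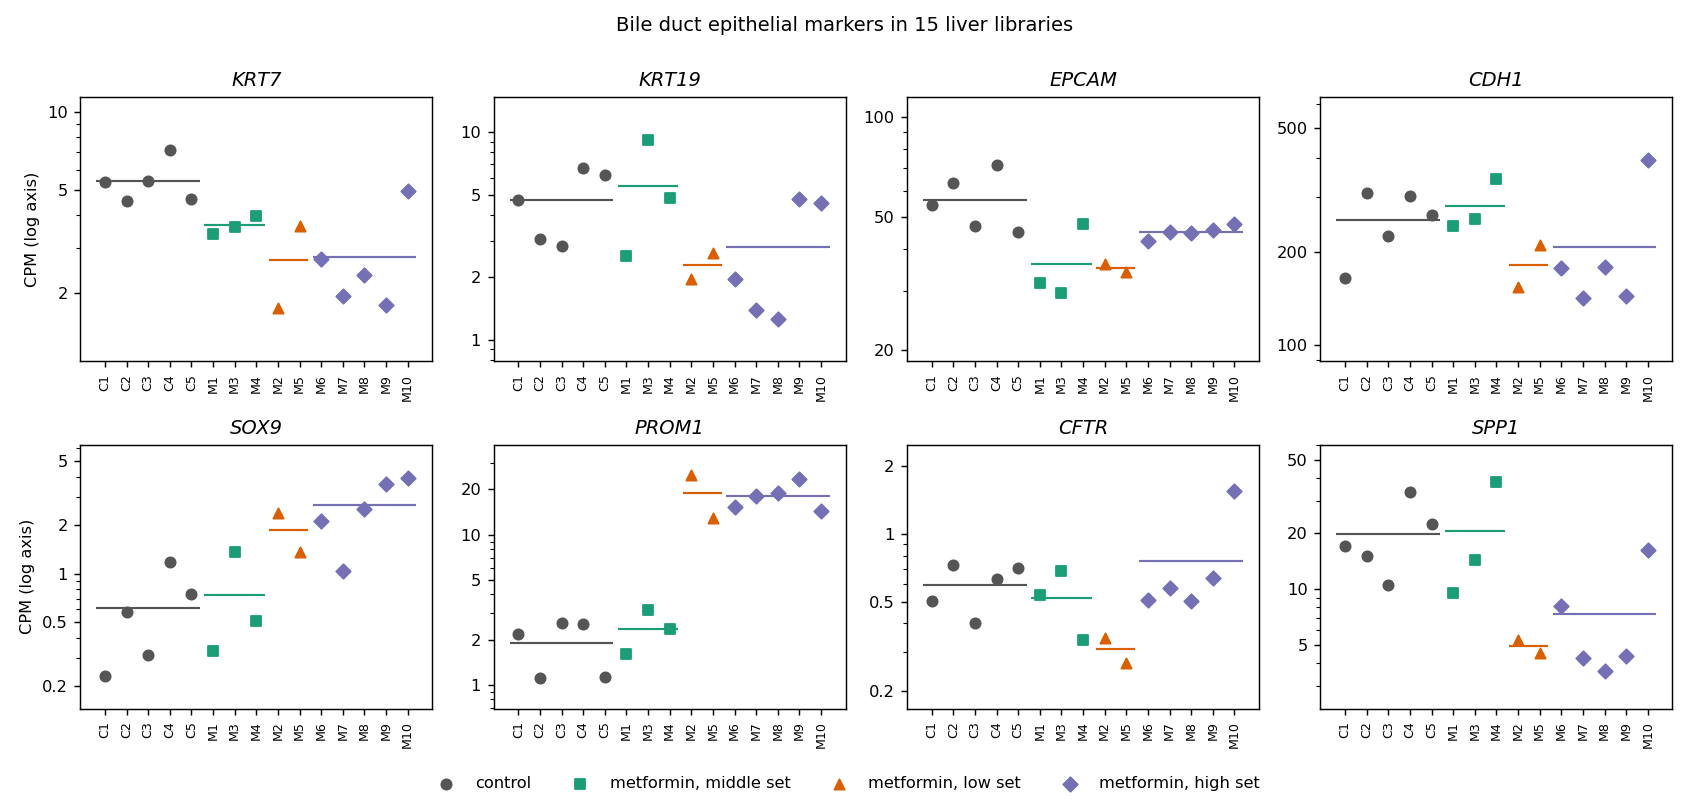
CPM of each marker in each library on a log axis, for controls (C1 to C5) and metformin libraries (M1 to M10) ordered by library set, with a line at the mean of each group of libraries. PROM1 lay at 1.11 to 3.14 CPM in the controls and metformin 1, 3 and 4 and at 13.0 to 24.9 CPM in the other 7 metformin libraries.

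PROM1, prominin-1, is a membrane protein of cell protrusions that marks duct cells and epithelial progenitors. It was at 2.18, 1.11, 2.60, 2.52 and 1.13 CPM in controls 1 to 5, or 1.91 ± 0.736 CPM (SD, n = 5). With metformin it ran from 1.599 to 24.9 CPM with a median of 14.8, or 13.5 ± 8.53 CPM (SD, n = 10). The metformin libraries split cleanly by set. Metformin 1, 3 and 4 had 1.599, 3.14 and 2.37 CPM, in or near the range of the controls. Metformin 2 and 5 had 24.9 and 13.0 CPM, and metformin 6 to 10 had 15.2, 18.0, 18.9, 23.5 and 14.4 CPM. The low and the high set, at opposite ends of the share of reads in no gene, thus overlapped in PROM1 and both lay above every library of the middle set.

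Over all libraries the log2 fold change of PROM1 was 2.81 ± 0.63 (SE, edgeR adjusted p = 0.0225), and 8 of 10 metformin libraries lay above all controls. Set-adjusted it was 0.31 ± 0.34 (edgeR adjusted p = 0.795), from 0.0650 without metformin 3 to 0.52 without metformin 1, and in the middle set alone 0.33 ± 0.44 (edgeR adjusted p = 0.843). The call over all libraries was lost without control 2 (log2 fold change 2.67, adjusted p = 0.0674), control 4 (2.93, adjusted p = 0.0617) or control 5 (2.67, adjusted p = 0.0719), each by edgeR. In those leave-outs 0.0137%, 0.109% and 0% of all genes were called higher, against 12.5% in the main fit. The unadjusted edgeR p of PROM1 in them was 0.00167, 0.00101 and 0.00167, against 3.87e-04 in the main fit. Without the 5 libraries of the high set the value was 2.35 (edgeR adjusted p = 0.204), where 0% of all genes were called in either direction. In a RefSeq gene table of the GRCg7b assembly, a long noncoding RNA, LOC121110788, overlaps PROM1. The sources used here do not give the counting strand, so reads of overlapping genes cannot be told apart.

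SOX9, the transcription factor that marks duct cells and their precursors, was low throughout, with 5 to 117 reads per library. The 5 controls had 0.233, 0.581, 0.314, 1.18 and 0.752 CPM. Metformin libraries ran from 0.333 to 3.94 CPM with a median of 1.74, and 7 of 10 lay above all controls. The groups overlapped through metformin 1, 4 and 7, which had 0.333, 0.508 and 1.04 CPM, while metformin 3, the other library of the middle set, had 1.37 CPM. The log2 fold change was 1.64 ± 0.60 (SE) and missed the threshold over all libraries (edgeR adjusted p = 0.0618), and set-adjusted it was 0.25 ± 0.63 (edgeR adjusted p = 0.929). SOX9 passed the filter on low counts, a CPM of at least 0.467 before TMM scaling in at least 5 libraries, in 3 controls and 9 metformin libraries. The controls alone were too few to pass it, so its selection leaned toward a higher level with metformin, and its fold change is a description. Its value passed the threshold without metformin 1, 3 or 4, at adjusted p-values of 0.0332, 0.0427 and 0.0343 by edgeR. It also passed with DESeq2 (log2 fold change 1.69, adjusted p = 0.0164) and with limma voom and quality weights (adjusted p = 0.0110). The leave-outs and limma voom used a filter of the same kind, and all these passes too are a description. With no filter SOX9 missed the threshold (edgeR adjusted p = 0.0830). In those leave-outs 16.2%, 20.9% and 18% of all genes were called higher, with DESeq2 18.1% and with limma voom 23%, against 12.5% in the main fit.

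KRT7, a type II keratin of simple duct epithelia, was lower with metformin. Controls 1 to 5 had 5.36, 4.55, 5.42, 7.15 and 4.61 CPM, or 5.42 ± 1.05 CPM (SD, n = 5). Metformin libraries ran from 1.75 to 4.95 CPM with a median of 3.06, or 3.02 ± 1.07 CPM (SD, n = 10). All metformin libraries but metformin 10 lay below every control. KRT7 was the only one of the 8 markers for which metformin 1, 3 and 4 all lay below the controls, at 3.40, 3.62 and 3.98 CPM. Its log2 fold change was -0.84 ± 0.28 over all libraries (SE, edgeR adjusted p = 0.0457) and -0.56 ± 0.36 set-adjusted (edgeR adjusted p = 0.590). The call was lost without any 1 of the 5 controls, or without metformin 2, 5, 6, 7, 8 or 9, with values from -0.90 to -0.72 over the 15 leave-outs and edgeR adjusted p-values from 0.0274 to 0.117. Calls also became rarer over all genes there. Without a control 0% to 2.3% were called lower, and without one of those metformin libraries 2.11% to 3.61%, against 5.73% in the main fit. None of the 8 markers separated the groups in full, where 0.651% of genes tested had every metformin library higher than every control and 1.05% had every one lower.

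KRT19, a type I keratin listed beside KRT7 as a duct marker, did not pass the test. In controls 1 to 5 it was at 4.70, 3.05, 2.82, 6.69 and 6.204 CPM. Metformin libraries ran from 1.26 to 9.22 CPM with a median of 2.58, the highest being metformin 3. The metformin range enclosed that of the controls, with 6 of 10 libraries below all controls and 1 above. The log2 fold change was -0.42 ± 0.43 (SE, edgeR adjusted p = 0.479), and 0.23 ± 0.49 set-adjusted (edgeR adjusted p = 0.911), which turned to -0.34 without metformin 3. KRT19 was called only with limma voom and quality weights (log2 fold change -0.92, adjusted p = 0.0353), which called 27.7% of all genes lower. The RefSeq table of GRCg7b gives KRT19 as a synonym of a gene it calls KRT24, so the identity of this row with the mammalian KRT19 is uncertain.

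EPCAM, an adhesion molecule that duct cells carry and that adult mammalian hepatocytes lack, had between 392 and 1771 reads per library. In the controls it was at 54.3, 63.2, 47.1, 71.5 and 44.9 CPM, or 56.2 ± 11.2 CPM (SD, n = 5). Metformin libraries ran from 29.6 to 47.8 CPM with a median of 43.6, or 40.5 ± 6.91 CPM (SD, n = 10). No metformin library lay above all controls, 6 of 10 lay below them, and the other 4 overlapped with the lower controls. The log2 fold change was -0.47 ± 0.16 (SE) and missed the threshold (edgeR adjusted p = 0.0505). EPCAM was the marker with the smallest unadjusted p set-adjusted, at -0.63 ± 0.19 (edgeR p = 0.00411, adjusted p = 0.194). It passed the threshold over all libraries without metformin 3 (edgeR adjusted p = 0.0386) or metformin 4 (edgeR adjusted p = 0.0347) and with DESeq2 (adjusted p = 0.0449). In those leave-outs 15.9% and 10.9% of all genes were called lower, and with DESeq2 6.66%, against 5.73% in the main fit. The unadjusted edgeR p of EPCAM was 0.0126 without metformin 3 and 0.00784 without metformin 4, against 0.00929 in the main fit.

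The level of EPCAM was nearly even within the high set, at 45.2 ± 1.90 CPM (SD, n = 5), a coefficient of variation of 4.21%. In the same 5 libraries that of CDH1 was 51.1%, of SPP1 72.4% and of PROM1 20.1%. In metformin 1 and 3 EPCAM was at 31.7 and 29.6 CPM, below all other libraries, and these 2 libraries also had the highest shares of reads in no gene within the middle set, 39.0% and 43.5%. The part of that share in the lower EPCAM level was not tested.

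CDH1, E-cadherin, which joins epithelial cells to each other, did not pass the test. Controls 1 to 5 had 165, 309, 225, 303 and 264 CPM, and metformin libraries ran from 142 to 394 CPM with a median of 194. The groups overlapped, with 2 metformin libraries above all controls, metformin 4 and 10, and 3 below. The log2 fold change was -0.18 ± 0.26 (SE, edgeR adjusted p = 0.628), from -0.30 without control 1 to -0.0912 without metformin 7, and 0.15 ± 0.31 set-adjusted (edgeR adjusted p = 0.911). CDH3, the cadherin gene next to CDH1 in the RefSeq table, was at 8.04 ± 3.80 CPM in controls (SD, n = 5) and 7.41 ± 4.81 with metformin (SD, n = 10), and was also highest in metformin 10, at 20.1 CPM.

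SPP1, osteopontin, is a secreted phosphoprotein that duct cells release and that rises in injured mammalian liver. Controls 1 to 5 had 17.1, 15.2, 10.6, 33.7 and 22.6 CPM. Metformin 1, 3 and 4 had 9.53, 14.4 and 37.7 CPM, metformin 2 and 5 had 5.34 and 4.505 CPM, and metformin 6 to 10 had 8.06, 4.27, 3.62, 4.34 and 16.2 CPM. In 7 of 10 metformin libraries SPP1 lay below all controls, namely metformin 1, both libraries of the low set and all of the high set but metformin 10. The log2 fold change was -0.87 ± 0.50 (SE, edgeR adjusted p = 0.201) and 0.06 ± 0.49 set-adjusted (edgeR adjusted p = 0.987). Without metformin 4, which lay above every control, the value over all libraries was -1.34 and passed (edgeR adjusted p = 0.0214), and the set-adjusted value was -0.73 (edgeR adjusted p = 0.587). Leaving metformin 4 out of the fit over all libraries also brought the share of all genes called lower to 10.9%, from 5.73%. With limma voom and quality weights SPP1 was at -1.595 and passed (adjusted p = 0.00164), where 27.7% of all genes were called lower. PKD2, the gene next to SPP1 in the RefSeq table, is described with the cilium genes.

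CFTR, the chloride channel through which mammalian duct cells secrete in answer to secretin, was barely covered, with 5 to 17 reads per library. It was over the limit of the filter on low counts in 4 controls and 6 metformin libraries, where 5 libraries were needed. Controls 1 to 5 had 0.505, 0.726, 0.403, 0.631 and 0.705 CPM, and metformin libraries ran from 0.268 to 1.56 CPM with a median of 0.521. The groups overlapped, and 1 metformin library, metformin 10, lay above all controls. Pooled over libraries, 67 reads gave 0.589 CPM in controls (exact Poisson 95% interval 0.456 to 0.748) and 93 reads gave 0.484 CPM with metformin (0.390 to 0.592), intervals that cover counting error only. The log2 fold change was -0.02 ± 0.45 (SE, edgeR adjusted p = 0.980), and -0.26 without metformin 10. No difference in CFTR was detected, and the size of difference that could be detected at this depth was not tested. CFTR too is overlapped by a long noncoding RNA in the RefSeq table, LOC121107644.

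**Figure D2:**
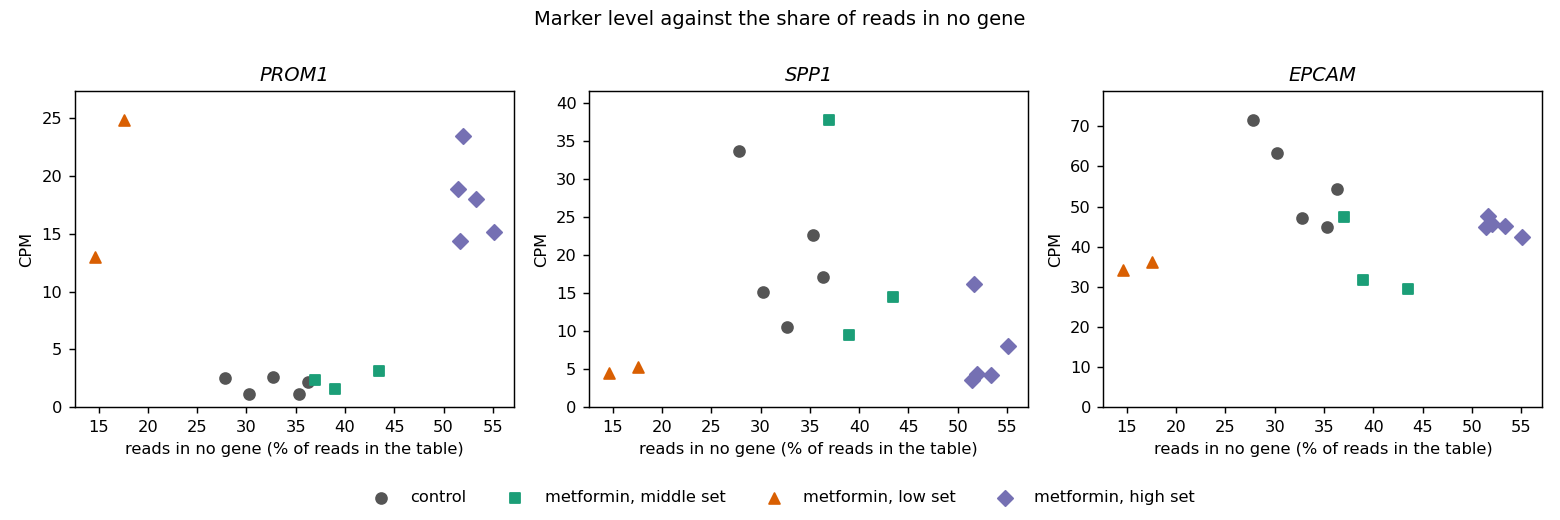
CPM of PROM1, SPP1 and EPCAM against the percentage of reads in no gene, 1 point per library. PROM1 was high at both ends of the share and at most 3.14 CPM between 27.8% and 43.5%, while SPP1 was low at both ends except in metformin 10.

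The markers varied together only in part. After the mean of each library set was taken from each gene's log2 CPM, 22 of the 28 pairs of markers correlated above 0 and 6 below over the 15 libraries, with Pearson's r from -0.37 to 0.74 and a median of 0.37. PROM1 accounted for 5 of the 6 negative pairs. These correlations are a description, with no p, and the libraries share depth and library factors. By the same measure the 2 genes most like CDH1 among 12967 were its neighbour CDH3 (r = 0.93) and the natriuretic peptide receptor NPR2 (0.93). Without metformin 10 and control 1, the libraries farthest from the median of CDH1, these were 0.81 and 0.86. For KRT19 they were PTPRVP (0.92) and the hyaluronidase HYAL1 (0.91), which stayed at 0.90 and 0.91 without metformin 3 and 9.

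For EPCAM the most similar genes were CST3, the protease inhibitor cystatin C (r = 0.94), and RGS18 (0.91), and without metformin 3 and control 4 they had 0.85 and 0.89. For KRT7 they were the kinase MAP2K3 (0.91) and the matrix protein TNC (0.90), and 0.79 and 0.76 without metformin 10 and control 4. For SPP1 they were LOC101748744 (0.86) and FBXL7 (0.85), at 0.70 and 0.85 without metformin 10 and 4. PROM1, SOX9 and CFTR had LOC107049125 and LOC101750125 (0.79 and 0.78), STAP2 and ASXL2 (0.79 and 0.79), and LOC422643 and RFLNB (0.86 and 0.84). Without the 2 farthest libraries these fell to 0.68 and 0.60 for PROM1 (without control 2 and 5), 0.59 and 0.73 for SOX9 (without metformin 7 and 3) and 0.53 and 0.65 for CFTR (without metformin 10 and control 2). SOX9 and CFTR had as few as 5 reads in a library, and at such counts these are names given by the rule and nothing more. Likeness after set means were taken off did not always hold before. There r was 0.86 and 0.74 for CDH1, 0.93 and 0.805 for KRT19, and 0.44 and 0.27 for EPCAM. It was 0.945 and 0.31 for KRT7, 0.48 and -0.0205 for SPP1, and -0.11 and -0.415 for PROM1. For SOX9 it was -0.29 and 0.76, and for CFTR 0.55 and 0.21.

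Other genes listed for bile duct cells were read from 6 lists with 105 genes, of which 99 had a row and 90 passed the filter on low counts. A place on a list does not make a gene particular to duct cells. Which liver cells the reads came from was not tested. Over all libraries 10 of the 90 were called higher (11.1%, against 12.5% of all genes) and 3 lower (3.33%, against 5.73%), with a median log2 fold change of 0.20. Set-adjusted, 0 of the 90 were called and the median was -0.01. Pooled over the lists, the share called higher was near the background and the share called lower was below it. Before the test, 4 of the 90 passed the filter on low counts with 0 controls over its limit, among them YAP1, the only one of the 4 that was called. Others passed with fewer controls over it than the 5 libraries needed, such as AQP1 (1 control and 6 metformin libraries) and SOX4 (2 and 7). None of these others was called. The 12 called genes named by rule kept their calls in 3 to 12 of the 15 leave-outs, over which 0% to 20.9% of all genes were called higher and 0% to 15.9% lower.

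**Figure D3:**
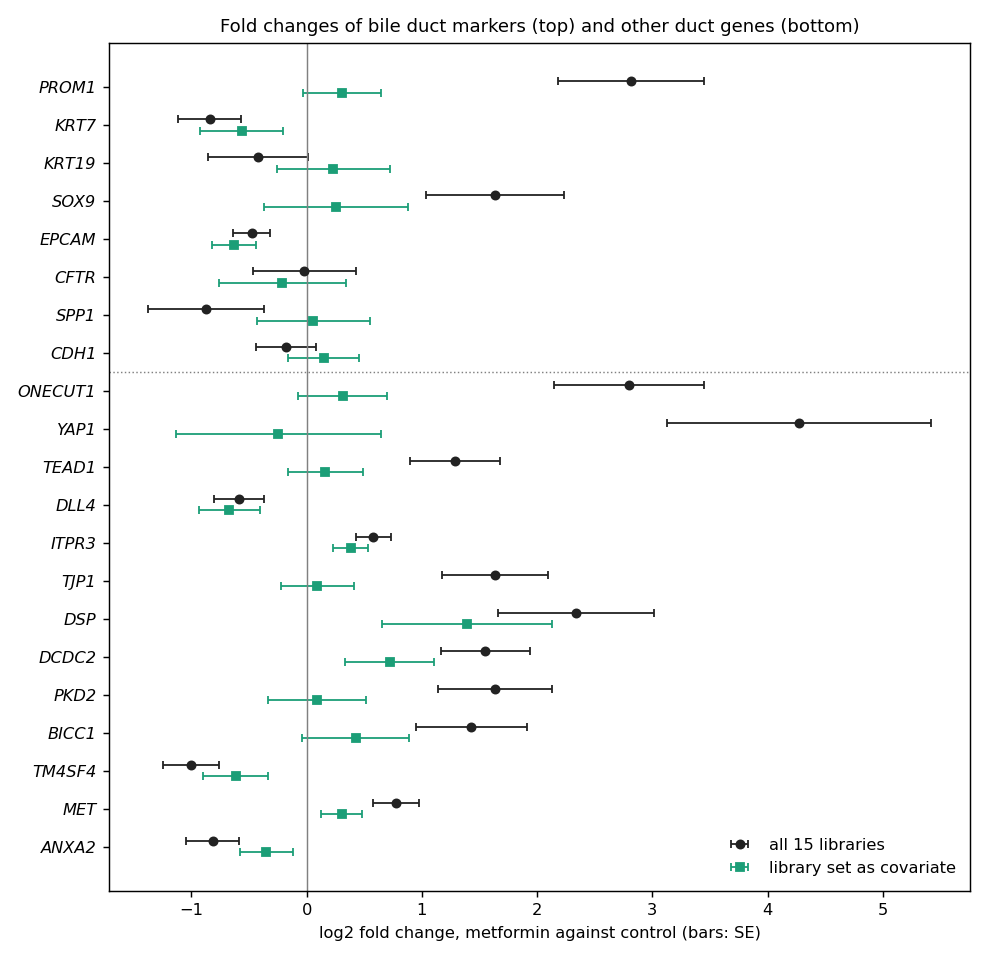
Log2 fold change of metformin against control with its SE for the 8 markers (above the dotted line) and 13 other duct genes, over all 15 libraries and with the library set as a covariate. PROM1, ONECUT1, YAP1 and TJP1 lay at 1.63 to 4.27 over all libraries and at -0.25 to 0.31 set-adjusted, while KRT7 and EPCAM lay below 0 in both.

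Of 10 tested transcription factors of ducts 3 were called higher (30%, against 12.5% of all genes) and 0 lower (against 5.73%). One of the 3, YAP1, was tested only through metformin libraries in which it is high, and its call supports nothing. ONECUT1, which directs biliary and hepatic fate in the mouse embryo, went from 1.13 ± 0.259 CPM (SD, n = 5) to 7.91 ± 5.32 CPM (SD, n = 10), a log2 fold change of 2.79 (edgeR adjusted p = 0.0241) and 0.31 set-adjusted. YAP1, a coactivator of the Hippo pathway, was at 0.0448 to 0.463 CPM in controls and 0.0846 to 0.273 CPM in metformin 1, 3 and 4, and at 0.934 to 12.4 CPM in the others. It had 1 to 11 reads per control and passed the filter on low counts through 7 metformin libraries and 0 controls. Its selection thus already leaned toward a higher level with metformin. Its log2 fold change of 4.27 (edgeR adjusted p = 0.0289), and -0.25 set-adjusted (edgeR adjusted p = 0.957), is a description. Its DNA-binding partner TEAD1 had 1.29 (edgeR adjusted p = 0.0369) and 0.16 set-adjusted. TEAD1 did not split as cleanly as PROM1, since metformin 9, at 13.2 CPM, lay below control 2, at 13.7 CPM. ONECUT1 in metformin 1, at 2.46 CPM, lay above every control, the highest of which had 1.41 CPM.

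Of 12 tested genes of Notch signalling, which sets duct fate in mammals, 0 were called higher or lower (all genes 12.5% and 5.73%, edgeR). The Notch ligand DLL4, which had the smallest p, was at 22.7 ± 6.84 CPM in controls (SD, n = 5) and 15.1 ± 4.51 CPM with metformin (SD, n = 10), a log2 fold change of -0.58 (edgeR adjusted p = 0.0644) and -0.67 set-adjusted (edgeR adjusted p = 0.326). Of 13 tested genes of duct secretion and absorption 1 was called higher (7.69%, against 12.5% of all genes) and 0 lower (against 5.73%). This was ITPR3, the calcium release channel of duct cells, which in 10 of 10 metformin libraries was higher than in any control, at 14.2 to 18.3 CPM in controls and 19.2 to 32.3 CPM with metformin. Its log2 fold change was 0.58 (edgeR adjusted p = 0.0282) and 0.38 set-adjusted (edgeR adjusted p = 0.324). Of all genes tested, 0.651% had all 10 metformin libraries above all 5 controls.

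Of 18 tested genes of epithelial junctions and splicing 2 were called higher (11.1%, against 12.5% of all genes) and 0 lower (against 5.73%). TJP1, a scaffold of tight junctions, had a log2 fold change of 1.63 (edgeR adjusted p = 0.0318) and 0.09 set-adjusted. DSP, which anchors desmosomes, had 0.971 to 3.45 CPM in controls and 1.78 to 39.4 CPM with metformin, a log2 fold change of 2.34 (edgeR adjusted p = 0.0333) and 1.39 set-adjusted (edgeR adjusted p = 0.493, and 0.55 without metformin 1).

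Of 13 tested genes of the primary cilium and of polycystic disease 3 were called higher (23.1%, against 12.5% of all genes) and 0 lower (against 5.73%). DCDC2, a microtubule-binding protein of cilia in duct cells, was higher than in any control in 10 of 10 metformin libraries, at 5.84 to 8.78 CPM in controls and 8.81 to 55.7 CPM with metformin. Its log2 fold change was 1.55 (edgeR adjusted p = 0.0265) and 0.72 set-adjusted (edgeR adjusted p = 0.502). Such a full separation upward was seen in 0.651% of all genes tested. PKD2, a ciliary cation channel, went from 1.90 ± 0.838 CPM (SD, n = 5) to 5.91 ± 3.61 CPM (SD, n = 10), by 1.63 (edgeR adjusted p = 0.0375) and 0.09 set-adjusted. BICC1, an RNA-binding protein whose loss gives cystic kidneys in mice, had 1.43 (edgeR adjusted p = 0.0491) and 0.42 set-adjusted.

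Of 24 tested genes among other keratins and surface proteins of ducts 1 was called higher (4.17%, against 12.5% of all genes) and 3 lower (12.5%, against 5.73%). The receptor MET, for hepatocyte growth factor, rose from 34.4 ± 6.89 to 58.8 ± 14.3 CPM (SD, n = 5 and 10), a log2 fold change of 0.77 (edgeR adjusted p = 0.0281) and 0.30 set-adjusted. TM4SF4, a membrane protein with 4 spans, was at 422 to 1132 CPM in controls and 303 to 736 CPM with metformin, a log2 fold change of -1.002 (edgeR adjusted p = 0.0249) and -0.62 set-adjusted (edgeR adjusted p = 0.419). ANXA2, a membrane-binding annexin, had -0.82 (edgeR adjusted p = 0.0316) and -0.35 set-adjusted. The third was TM4SF1, named after its values were seen, with -1.13 (edgeR adjusted p = 0.0347) and -1.23 set-adjusted (edgeR adjusted p = 0.318).

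**Figure D4:**
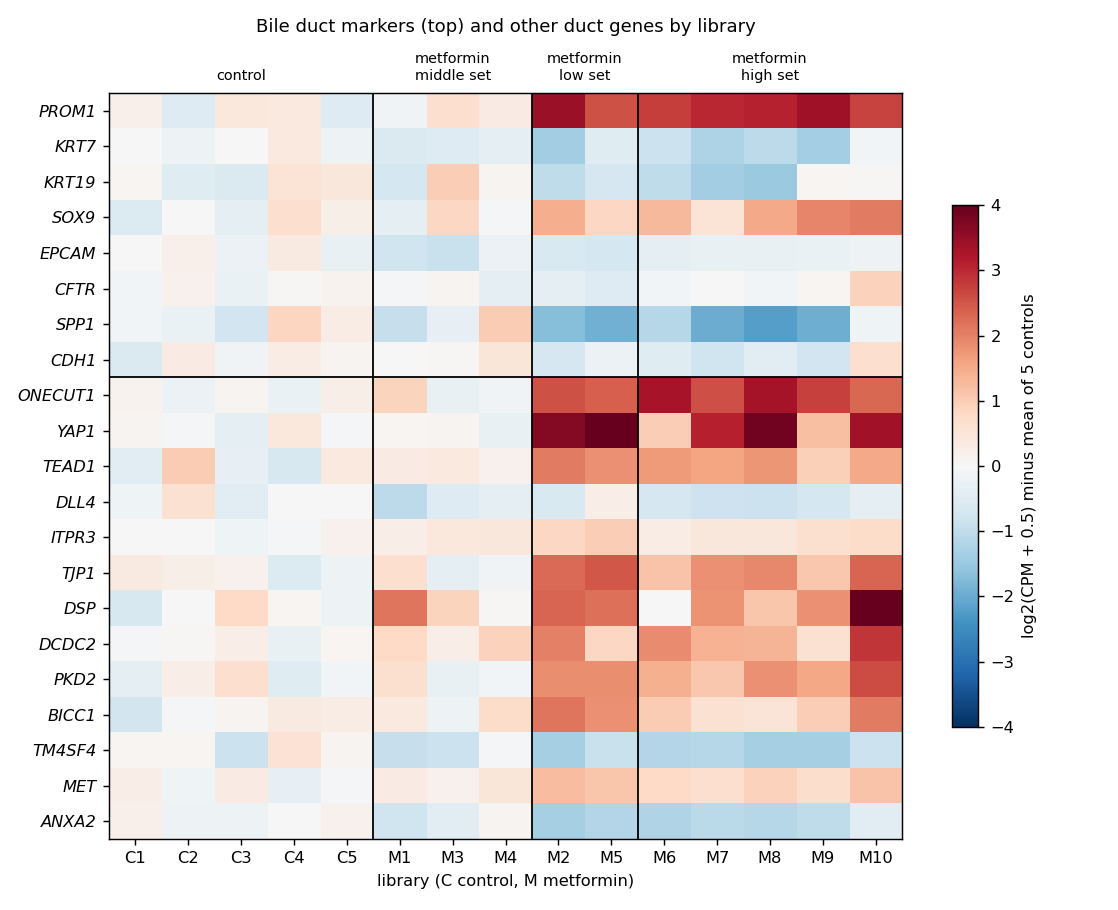
Log2(CPM + 0.5) of each library minus the mean of the 5 controls, for the 8 markers (top) and 13 other duct genes, with libraries ordered by set. Outside the middle set, all 7 metformin libraries exceeded metformin 1, 3 and 4 in PROM1, ONECUT1, YAP1, TEAD1, TJP1, PKD2 and MET. In metformin 1, ONECUT1, TJP1 and PKD2 reached 0.88, 0.69 and 0.63. KRT7, SPP1, TM4SF4 and ANXA2 were mostly lower in the 7 metformin libraries outside the middle set.

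Markers of the other cells of the liver were read beside these results. The 12 hepatocyte genes, led by albumin (ALB), summed to 67350 to 89830 CPM in controls and 37580 to 67530 CPM in metformin 1, 3 and 4. Their sums were 107000 and 121000 CPM in the low set and 76690 to 132600 CPM in the high set. Of the 12, 0 were called higher and 1 lower. The 9 endothelial genes summed to 205 to 286 CPM in controls and 116 to 394 with metformin, with 1 of 9 called lower. The 12 leukocyte and macrophage genes summed to 706 to 1158 CPM and 564 to 1087 CPM, with 1 of 12 called lower. The 10 genes of stellate cells and fibroblasts summed to 233 to 511 CPM and 227 to 800 CPM, with 1 of 10 called higher. Of all genes tested, 12.5% were called higher and 5.73% lower. The single call was 8.33% of the hepatocyte and of the leukocyte list, 11.1% of the endothelial list and 10% of the stellate cell list. The part of these cell types in the levels of the duct markers was not tested.

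The red cell genes summed to 268 to 1237 CPM in controls and 149 to 601 CPM with metformin. By edgeR 0 of 4 tested were called, against 12.5% of all genes higher and 5.73% lower. Among the 10 genes of gut and pancreas, CDX1, CPA1, PRSS2 and PNLIP had 0 reads in all 15 libraries and the sum was at most 8.47 CPM. Metformin 10, which had the highest CDH1 and CFTR of all libraries, was also the library with the highest sum of stellate cell and fibroblast genes, at 800 CPM.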

How the data were processed

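The authors deposited a table of unnormalized counts of reads for each gene. Its closing rows named in the style of HTSeq hold reads outside the gene counts and stayed out of library sizes and tests. The submitters' processing notes name the aligner STAR 2.7.11b, the counter HTSeq 0.12.3, the read tools FastQC 0.12.0 and Trim Galore 0.6.4, and the builds GRCg6a and galGal6. RNA was 200 ng per library in a stranded mRNA kit, per the labels' protocols.

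Counts were tested with edgeR 4.0.16 in R 4.3.3 (quasi-likelihood test, TMM factors, default expression filter, Benjamini-Hochberg adjustment over all genes tested), without a replicate block. Each SE is the size of the log2 fold change over the square root of its F statistic. DESeq2 1.42.0, limma 3.58.1 and the other alternatives are given in the closing part. The calculations were tested on simulated counts that held no differences between library sets. That test therefore does not bear on calls that follow the sets.

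The markers, lists, library sets and tests were chosen with earlier results of these data known. Named genes were all 8 markers, in each duct list the called genes with the smallest p, up to 3 (or, in a list without calls, the 1 gene of smallest p), and 2 genes per marker by set-centred correlation of log2(CPM + 0.5) among genes with a mean log2 CPM of at least 0. By symbol, 18461 gene rows matched the RefSeq table of GRCg7b, used only for names and neighbours. Between any 2 libraries chi-square per degree of freedom was at least 90.6 over 2000 genes, so no library was a copy. CFTR and SOX9 had as few as 5 reads in a library and YAP1 as few as 1.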

Additional observations from a re-analysis of the deposited data

Results flagged for a closer look

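In each group, a library was looked at when its gap to the nearest other library, as a share of the group's range, passed Dixon's 95% critical value. Of 44 groups of values, 9 passed. For independent and normally distributed values chance passes about 1 in 20. CPM of genes read in the same libraries need not be such values, so the 9 are not set against that rate. All 9 were in the metformin group, which spans the 3 library sets.

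Metformin 10 stood apart in 4 genes. It had 1.56 CPM of CFTR, where the next metformin library had 0.683, 39.4 CPM of DSP (next 10.9), 55.7 CPM of DCDC2 (next 30.6) and 20.1 CPM of CDH3 (next 9.52). The CFTR value is 17 reads.

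Metformin 4 stood apart in 3 genes, with 37.7 CPM of SPP1 (next 16.2), 735.5 CPM of TM4SF4 (next 419.8) and 22.3 CPM of ANXA2 (next 15.1). Its TM4SF4 and ANXA2 were within the range of the controls, and its SPP1 was above it. Metformin 3 had 9.22 CPM of KRT19 (next 4.83), and metformin 5 had 26.4 CPM of DLL4 (next 17.1).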

How the results depend on the processing

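Counts of calls depended on the fit. DESeq2 called 3096 of 17138 genes higher (18.1%) and 1142 lower (6.66%), with 2 markers higher and 2 lower and 20 other duct genes higher and 4 lower. limma voom with quality weights called 3323 higher (23%) and 4001 lower (27.7%), 2 and 4 markers, and 23 and 21 duct genes. SOX9 was among the 2 markers higher in both fits, and its calls are a description, as given in its paragraph. With the replicate number as a block 0 genes were called in either direction, markers and duct genes included, and 1704 had an unadjusted p under 0.05. Same-numbered libraries of the 2 groups correlated at -0.077 to 0.0636 and 1 of 5 correlated best with its own number. Metformin 2 and 5 lie in the low set, which holds no control, so this could not show whether the numbers pair hens. With the library set as covariate 4 genes were called higher and 1 lower, in the middle set 0 and 1, and without the high set 0 and 0 (2309 at an unadjusted p under 0.05), with 0 markers and 0 duct genes in each. Without the low set 1454 of 14067 genes were higher (10.3%) and 366 lower (2.6%), with 1 marker higher, PROM1, and 0 lower, and 6 duct genes higher and 2 lower. Upper quartile factors and no filter left 0 markers lower, and the filter of CPM at least 1 gave 2 lower. RLE factors left 1 marker called in each direction.

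Over the 15 leave-outs calls ran from 0 to 3011 higher and 0 to 2293 lower, with 0 to 2 markers higher, 0 to 3 lower, 0 to 20 duct genes higher and 0 to 9 lower. Where 2 markers were higher, SOX9 was among them. Both lowest counts came without control 5 (4826 at an unadjusted p under 0.05) and both highest without metformin 3. Set-adjusted they ran from 0 to 166 and 0 to 35, the highest without control 1, with 0 to 1 duct genes higher and 0 markers.

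Direction turned with the set as covariate or in the middle set for KRT19 (0.23 and 0.25), SPP1 (0.0567 and 0.0737) and CDH1 (0.15 and 0.17), with the covariate for YAP1 (-0.25), and with RLE factors (0.0128) or without the low set (0.16) for CFTR. Over the leave-outs CFTR ran from -0.26 to 0.0728. Set-adjusted leave-outs crossed 0 for KRT19 (-0.34 to 0.58), SOX9 (-0.51 to 0.63), CFTR (-0.46 to 0.0359), SPP1 (-0.73 to 0.40), CDH1 (-0.0226 to 0.24), ONECUT1 (-0.33 to 0.57), YAP1 (-0.51 to 0.20), TJP1 (-0.32 to 0.30) and PKD2 (-0.33 to 0.35). Among the markers, PROM1, KRT7 and EPCAM kept their direction in all alternatives run. Among the other named duct genes TEAD1, DLL4, ITPR3, DSP, DCDC2, BICC1, TM4SF4, MET and ANXA2 did so too. The cause of these changes was not tested.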

Other observations

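KRT18 and KRT8, the paired keratins of simple epithelia that hepatocytes also carry, were chosen after their values were seen. KRT18 was at 1271 ± 342 CPM in controls (SD, n = 5) and 1322 ± 323 CPM in metformin 1, 3 and 4 (SD, n = 3), but at 127 ± 28.2 CPM in the low set (SD, n = 2) and 230 ± 87.0 CPM in the high set (SD, n = 5). KRT8 ran from 273.6 to 342.7 CPM in controls, 257.4 to 293.3 CPM in metformin 1, 3 and 4, 90.03 to 110.0 CPM in the low set and 158.7 to 260.8 CPM in the high set. Over all libraries KRT18 had a log2 fold change of -1.24 (edgeR adjusted p = 0.137) and KRT8 -0.64 (edgeR adjusted p = 0.0721), and set-adjusted 0.06 and -0.19. CGN, cingulin of tight junctions, also chosen after its values were seen, was at 266 ± 42.0, 257 ± 84.3, 42.2 ± 4.00 and 68.8 ± 19.1 CPM in the order given for KRT18.

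ELF3, an epithelial transcription factor chosen in the same way, was at 16.9 ± 11.0 CPM in controls (SD, n = 5) and 55.7 ± 6.60 CPM in metformin 1, 3 and 4 (SD, n = 3). It was at 15.4 ± 1.89 CPM in the low set (SD, n = 2) and 34.6 ± 18.4 CPM in the high set (SD, n = 5). Its log2 fold change was 1.13 over all libraries (edgeR adjusted p = 0.101) and 1.72 set-adjusted (edgeR adjusted p = 0.176).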
